A study of Homo sapiens with 30 samples.

Results

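The replication-dependent histone genes encode the linker histone H1 and the core histones H2A, H2B, H3 and H4 that package newly made DNA. The set comprised 69 genes, chosen by symbol alone: H1-1 to H1-6 and every intact gene whose symbol starts with H2AC, H2BC, H3C or H4C followed by a number (older symbols HIST1H and HIST2H). All 69 were found among the 62710 genes of the IMR32 table, and 34 were found among the 57905 genes of each of the NGP and SK-N-BE(2)c tables. The other 35 were not analysed in those lines. A gene was tested where its mean over all libraries of a table was at least 10, which held for 51 members in IMR32, 10 in SK-N-BE(2)c and 19 in NGP. In IMR32 the tested members were 4 of 6 H1 genes, 13 of 17 H2A genes, 15 of 18 H2B genes, 9 of 13 H3 genes and 10 of 15 H4 genes. Another 11 members had 3 reads or fewer in every IMR32 library, against 7 members in the NGP libraries and 12 in those of SK-N-BE(2)c.

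IMR32, NGP and SK-N-BE(2)c are established neuroblastoma cell lines, grown in culture. Each had been transfected with 100 nM of an antisense oligonucleotide (ASO) by lipofection, either one against NESPR, a long non-coding RNA, or a negative control ASO (NCA). IMR32 had 4 libraries each of ASO1, ASO2 and NCA, while SK-N-BE(2)c and NGP had 3 libraries each of ASO2, ASO10 and NCA. No untransfected cells are among the 30 libraries, so every group carries lipofection and an ASO, and NESPR itself was not analysed here. For these 2 lines, the control columns carry 2 spellings, which the titles place in the same group. No label says whether replicates were separate cultures, so a p-value measures the spread between these libraries, which may be technical.

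Most members lie in a cluster on chromosome 6, which held 55 of the 69, with 11 in a cluster on chromosome 1, another 2 farther along chromosome 1, and H4C16 alone on chromosome 12. Transcription of these genes rises as cells enter S phase, when DNA is replicated. Their mRNAs are mostly not polyadenylated: they end just after a conserved stem-loop, which the stem-loop binding protein SLBP holds, and they are degraded when replication stops. Some members also have a poly(A) signal downstream of the stem-loop and can give polyadenylated mRNA, for example in cells that leave the cell cycle. A library made from poly(A) RNA therefore sees mainly the latter form, whereas one made from total RNA sees both.

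The stem-loop was searched by its consensus (GG, 2 bases of any kind, CTT, any base, T, any base, AG, 2 bases of any kind, CC) in the transcripts of GENCODE 29 (GRCh38), at most 200 bases after a stop codon. Of 66 members with a coding transcript there, 30 held a match, and the other 36 had none within the annotated transcript. The most common form, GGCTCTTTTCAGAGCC, was found in 16 members, and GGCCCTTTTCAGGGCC, in which the stem is richer in G and C, in 5. The sequences of 6 members whose values are described below show how alike these ends are, with the stem-loop in capitals and 5 bases on either side.
H2BC21: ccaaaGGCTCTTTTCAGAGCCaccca
H2AC6: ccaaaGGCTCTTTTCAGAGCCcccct
H2BC5: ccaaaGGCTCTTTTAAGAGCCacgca
H2AC25: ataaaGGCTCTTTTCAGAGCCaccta
H4C16: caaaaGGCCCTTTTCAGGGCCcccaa
H3C6: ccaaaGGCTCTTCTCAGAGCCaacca
H2BC21 (chr1:149886183-149886208, minus strand), H2AC6 (chr6:26124664-26124689, plus strand) and H2AC25 (chr1:228457364-228457389, minus strand) have the same 16 letters in capitals. H2BC5 (chr6:26158582-26158607, plus strand) has another loop, H4C16 (chr12:14770719-14770744, minus strand) the form richer in G and C, and H3C6 (chr6:26225591-26225616, plus strand) a form that no other member with a match had.

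The 250 bases before the start of transcription were searched in the promoters of RefSeq (GRCh38.p14), which were given for 64 members, on both strands. TATAAA, the TATA box, was found in 42 member promoters (65.6%), against 10.72% of all 35116 promoters. CCAAT was found in 54 (84.4%), against 32.01% of all promoters, but in only 3 of 13 H4 promoters. The octamer ATTTGCAT, which POU2F1 binds at H2B genes, was found in 14 of 18 H2B and 11 of 16 H2A promoters, in 1 of 11 H3 promoters and in none of the H1 and H4 promoters. The shares for the octamer were 40.6% of member promoters and 1.63% of all promoters. In 11 pairs an H2A and an H2B gene start 194 to 248 bases apart on opposite strands, so their windows share DNA. A match there can count for both genes, and the member counts are not all separate matches. The E2F motif TTTCCCGC was found in 1 member promoter (1.6%, against 1.39% of all). A match describes the letters only. The promoters of 3 H2A and H2B genes that rose under ASO10 in NGP show the arrangement, with every match in capitals.
H2BC21: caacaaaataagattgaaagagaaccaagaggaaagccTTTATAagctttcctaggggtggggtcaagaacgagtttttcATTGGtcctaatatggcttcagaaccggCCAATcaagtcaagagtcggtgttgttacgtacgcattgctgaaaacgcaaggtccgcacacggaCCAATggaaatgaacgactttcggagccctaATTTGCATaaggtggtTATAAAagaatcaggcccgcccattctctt
H2AC6: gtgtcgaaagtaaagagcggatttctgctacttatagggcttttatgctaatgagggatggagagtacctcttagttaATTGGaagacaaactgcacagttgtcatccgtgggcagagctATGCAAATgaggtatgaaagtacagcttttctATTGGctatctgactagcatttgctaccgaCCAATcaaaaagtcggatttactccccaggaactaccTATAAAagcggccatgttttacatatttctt
H2BC5: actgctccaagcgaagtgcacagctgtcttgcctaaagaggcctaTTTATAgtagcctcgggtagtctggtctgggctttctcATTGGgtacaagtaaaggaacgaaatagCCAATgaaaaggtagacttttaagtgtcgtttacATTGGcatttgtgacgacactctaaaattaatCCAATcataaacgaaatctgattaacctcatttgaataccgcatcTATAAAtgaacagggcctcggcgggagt
The first (chr1:149886683-149886932, minus strand) has an octamer, 3 CCAAT and 2 TATAAA matches, and also lies between H2BC21 and its neighbour H2AC20, which is read in the opposite direction. The second (chr6:26123922-26124171, plus strand) lies between H2AC6 and H2BC4 in the same way. The third (chr6:26157871-26158120, plus strand) has 4 CCAAT matches and no octamer in this window.

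Values are normalised counts, that is, gene counts divided by a size factor per library. The reads recovered from these values numbered 9393587 to 13932379 per IMR32 library, 11591178 to 13795561 per NGP library and 11497829 to 15060356 per SK-N-BE(2)c library. The adrenergic markers HAND2, GATA3 and DBH were present in every library of each line, and TH was low in IMR32 (20.1 to 33.0). Of the mesenchymal markers, VIM was present in every library (1946 to 2970 in IMR32, 9042 to 13720 in NGP, 2529 to 3660 in SK-N-BE(2)c). FN1 (414.3 to 539.2) and COL1A1 (630 to 962.3) were present in IMR32, and PRRX1 had at most 6 reads in any library. The leukocyte gene PTPRC had at most 4 reads in any library, while the epithelial KRT8 was at 11.9 to 32.0 in IMR32. Libraries were made either from total RNA or from poly(A) RNA, and which kit a given library had is not in the labels. A list of 16 RNAs without a poly(A) tail (such as RMRP and SCARNA7) held a median of 0.286% of a library in IMR32, while the 10 found in the other tables held 0.00153% of an NGP library and 0.000704% of an SK-N-BE(2)c library. Kit and cell line cannot be told apart, and the tables were scaled separately, so no level was tested between lines, and values of different lines set side by side below are descriptions in which line, kit and scaling are mixed. Of the members, 11 of 69 overlap another RefSeq gene (H2BC12 and H4C9 share 397 bases, for example), and some are near-identical copies (H2AC18 and H2AC19, H3C14 and H3C15, H4C14 and H4C15). Whether counting used strand is not given in the sources used here, so the values of these members are uncertain.

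In IMR32, 3 libraries stand apart in these genes: replicate 1 of each group. Over the 51 tested members, the median log2 difference from the NCA mean was 0.29 in NCA replicate 1, 0.37 in ASO1 replicate 1 and 0.33 in ASO2 replicate 1, whereas it lay between -0.158 and 0.178 in the other 9 libraries. All 51 members were above the group mean in NCA replicate 1, 49 in ASO1 replicate 1 and 46 in ASO2 replicate 1. The 30 S phase genes moved the same way in these libraries, by 0.119, 0.075 and 0.261, while all genes moved by 0.008 to 0.016. The 10 replication-independent histone variants stood at 0.126, 0.201 and 0.188, and the 21 histone chaperones at 0.051, 0.154 and 0.249 (both lists are described below). In the ASO libraries these differences also hold any change of the group against NCA. From their own group mean, ASO1 and ASO2 replicate 1 stood at 0.102 and 0.141 in the S phase genes. The variants stood at 0.175 and 0.155, and the chaperones at 0.058 and 0.097. What the shift reflects was not tested. The RNAs without a poly(A) tail stood at -0.106, 0.024 and -0.22 in the same libraries of NCA, ASO1 and ASO2. The labels give no meaning to the replicate numbers, and the IMR32 counts, and the members named with them, are therefore also given without these libraries.

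**Figure D1:**
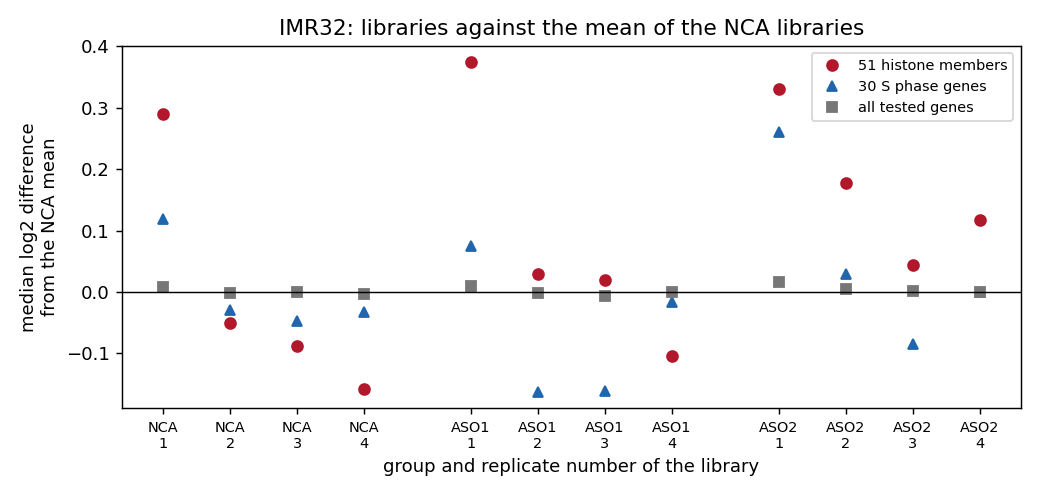
Median log2 difference of each IMR32 library from the mean of the NCA libraries (vertical axis), by group and replicate number (horizontal axis), for the tested member histone genes and for the comparison lists named in the key. The 3 replicate-1 libraries have the highest member values, 0.29 to 0.374, against -0.158 to 0.178 in the others.

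Each line was described by the share of its reads that the members held. In IMR32 the share was 0.677%, 0.547%, 0.531% and 0.511% in the NCA libraries (replicates 1 to 4), 0.700%, 0.577%, 0.579% and 0.534% with ASO1, and 0.684%, 0.628%, 0.575% and 0.592% with ASO2. The group means were 0.567% ± 0.0750 (SD, n = 4) for NCA, 0.598% ± 0.0715 (SD, n = 4) for ASO1 and 0.620% ± 0.0481 (SD, n = 4) for ASO2, and the 3 groups overlap. Without replicate 1, the share was 0.530% ± 0.0179 (SD, n = 3) for NCA, 0.563% ± 0.0250 (SD, n = 3) for ASO1 and 0.598% ± 0.0271 (SD, n = 3) for ASO2. The 3 remaining ASO2 libraries (0.575% to 0.628%) were then above the 3 NCA libraries (0.511% to 0.547%), while ASO1 (0.534% to 0.579%) still overlapped NCA.

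In NGP the share was 0.0105% ± 0.00137 (SD, n = 3) with NCA, 0.0107% ± 0.000935 (SD, n = 3) with ASO2 and 0.0187% ± 0.000603 (SD, n = 3) with ASO10. The ASO10 libraries (0.0183% to 0.0194%) lay above all NCA libraries (0.00906% to 0.0118%), and ASO2 overlapped NCA. In SK-N-BE(2)c the share was 0.00669% ± 0.000223 (SD, n = 3) with NCA, 0.00531% ± 0.000475 (SD, n = 3) with ASO2 and 0.00748% ± 0.000105 (SD, n = 3) with ASO10. Here ASO2 (0.00495% to 0.00585%) lay below and ASO10 (0.00737% to 0.00758%) above the NCA libraries (0.00644% to 0.00687%). These shares are sums over a chosen set and were not tested. Over the same 34 members, the median share was 0.348% in IMR32, against 0.00676% in SK-N-BE(2)c and 0.0116% in NGP, where line and kit cannot be told apart.

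**Figure D2:**
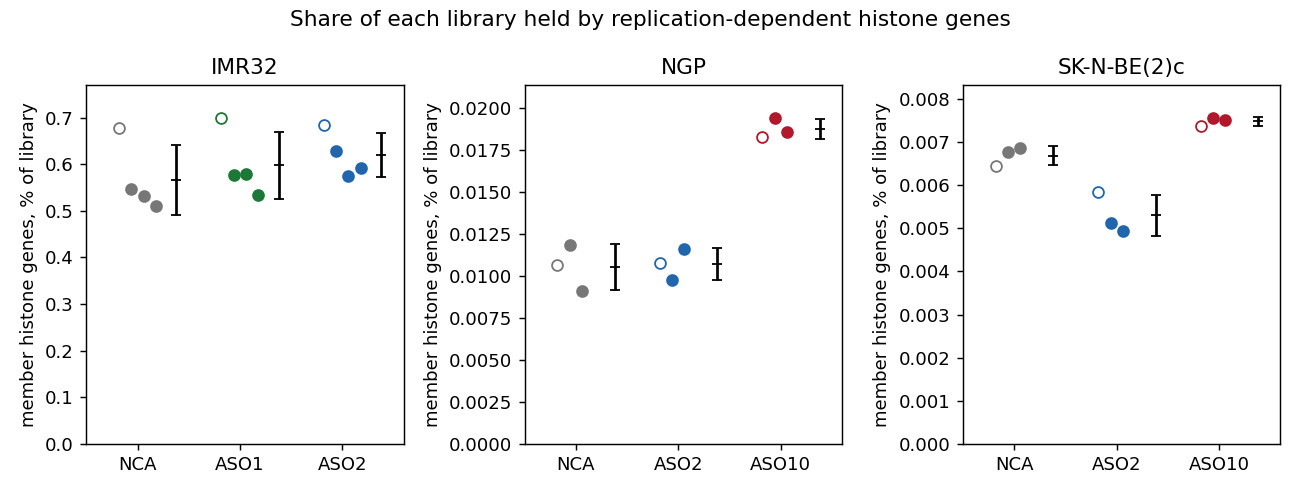
Share of each library held by the member histone genes, in percent (vertical axis, from 0, scaled per line), by group (horizontal axis), with a point per library and the group mean and SD. In SK-N-BE(2)c and NGP the ASO10 libraries lie above the NCA libraries without overlap, and in IMR32 the groups overlap.

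In IMR32, few members changed under ASO1 and more under ASO2, all of them upward. With limma on log2(value + 1) and an adjusted p under 0.05, 4 of 51 tested members rose under ASO1 and 0 fell. Of all 17309 tested genes, 28.0% were called in either direction and 13.6% were called upward. Unless stated otherwise, upward and lower shares are shares of all tested genes. Under ASO2, 10 members rose and 0 fell, where 32.4% of all genes were called, 17.6% upward. The members' share of calls under ASO1, 7.84%, is thus below that of all genes, and under ASO2, 19.6%, it is in this fit near the upward share of all genes, which did not hold without the replicate-1 libraries, as described next. The median log2 fold change of the members was 0.071 under ASO1 and 0.163 under ASO2, against -0.003 and -0.001 over all genes. The estimate was positive for 41 of 51 members under ASO1 and for 50 of 51 under ASO2. Both contrasts use the same NCA libraries. In RNA from a whole culture, a larger share of cells in S phase and more histone mRNA per cell cannot be told apart.

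Leaving out the replicate-1 library of every group, an alternative added after the data were seen, raised the counts. Of 50 members then tested, 15 rose and 1 fell under ASO1. There 32.9% of all 17393 genes were called, 2745 of them upward. Under ASO2, 40 rose and 0 fell, where 38.1% of all genes were called, 3560 of them upward. All 4 and all 10 members called before were called again. The median log2 fold change moved to 0.056 under ASO1 and 0.212 under ASO2. Leaving out NCA replicate 1 alone gave 13 calls under ASO1 and 27 under ASO2, of 50 members, where 27.2% and 32.7% of all genes were called. These member calls were all upward, and of all 17331 genes 2316 and 3113 were called upward. Under ASO1, there was 1 call without ASO1 replicate 2, NCA replicate 3 or NCA replicate 4, where 24.8%, 23.8% and 23.4% of all genes were called, and 2 without ASO1 replicate 1 or NCA replicate 2 (27.4% and 23.3%). Under ASO2 there were 5 calls without NCA replicate 4 (26.2% of all genes) and 16 without ASO1 replicate 1 (35.6%).

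**Figure D3:**
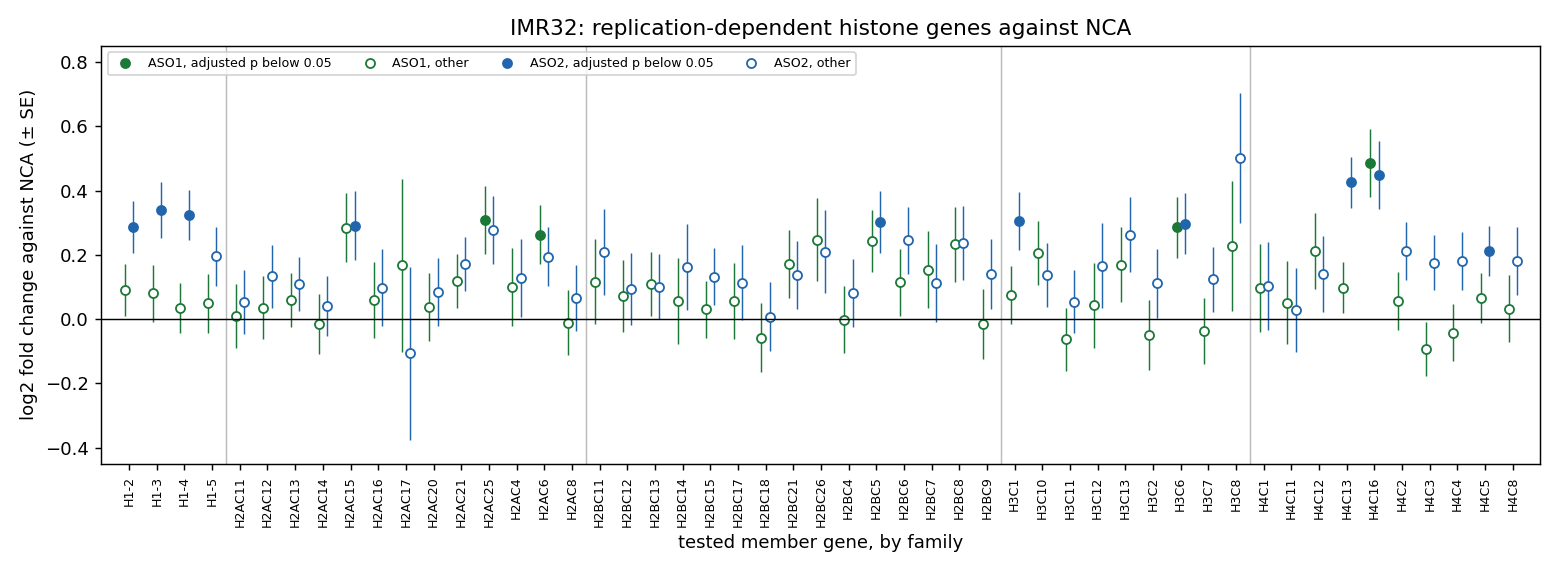
Log2 fold change against NCA with its standard error (vertical axis) for each of the 51 tested member genes in IMR32, ordered by family (horizontal axis), under ASO1 and ASO2; filled points have a limma adjusted p below 0.05. The filled points, 4 for ASO1 and 10 for ASO2, are all above 0, and 3 of the 4 H1 genes are filled for ASO2.

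The H1 genes encode the linker histones that bind DNA where it enters and leaves the nucleosome. H1-4 was at 5780, 4676, 4654 and 4383 in the NCA libraries, at 5917, 4639, 4644 and 4745 with ASO1, and at 6400, 6158, 5831 and 5890 with ASO2. Every ASO2 library lies above every NCA library, whereas ASO1 overlaps NCA. The log2 fold change of H1-4 under ASO2 was 0.32 (SE 0.078, limma adjusted p = 0.00336), and under ASO1 it was 0.033 (adjusted p = 0.792). H1-3 also rose under ASO2 without overlap, by 0.34 (SE 0.088, adjusted p = 0.00555), from 822.2 to 1054 in NCA to 1081 to 1196. H1-2 rose by 0.29 (SE 0.081, adjusted p = 0.010), from 4956, 4116, 4061 and 3779 to 5546, 5041, 4881 and 5087, and here NCA replicate 1 overlaps the ASO2 libraries.

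The rises under ASO2 without the replicate-1 libraries were 0.383 for H1-4 (adjusted p = 1.93e-11), 0.423 for H1-3 and 0.329 for H1-2, all called.

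H1-5 was at 7823, 6327, 6207 and 5960 with NCA and at 8691, 7599, 6803 and 6995 with ASO2, and its log2 fold change of 0.195 (SE 0.091) did not pass (adjusted p = 0.106). Without the replicate-1 libraries H1-5 did pass, at 0.209 (adjusted p = 1.19e-05). Under ASO1, 0 of 4 tested H1 genes passed, with log2 fold changes from 0.033 to 0.091. H1-6, a testis histone, and H1-1 had too few reads to be tested.

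H4C16, the lone H4 gene on chromosome 12, rose under both ASOs. It was at 66.1, 62.9, 63.7 and 58.8 with NCA, at 87.6, 85.9, 94.8 and 85.2 with ASO1, and at 87.7, 78.2, 82.6 and 97.1 with ASO2. Neither ASO group overlaps NCA, and replicate 1 is not apart in this gene. The log2 fold change of H4C16 was 0.485 under ASO1 (SE 0.106, limma adjusted p = 0.0017) and 0.449 under ASO2 (SE 0.106, adjusted p = 0.00292). Of the H4 genes in the chromosome 6 cluster, H4C13 passed the threshold under ASO2 alone, from 1084, 993, 1017 and 953.6 with NCA to 1543, 1350, 1177 and 1388. That rise of 0.426 (SE 0.079, adjusted p = 0.000403) was also without overlap. H4C13 was at 1293, 1026, 1043 and 990.8 with ASO1, which overlaps NCA. Without the replicate-1 libraries H4C16 was at 0.512 under ASO1 and 0.465 under ASO2 and H4C13 at 0.398 under ASO2, all called.

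H4C5 rose under ASO2 by 0.212 (SE 0.078, limma adjusted p = 0.0419), from 1417, 1313, 1292 and 1181 to 1695, 1456, 1411 and 1468. H4C5 lost that call without any 1 of 6 libraries (ASO2 replicates 1, 2 and 4 and NCA replicates 2, 3 and 4), at values from 0.155 to 0.228, and kept it without the replicate-1 libraries (0.197). H4C3 did not pass under either ASO, at 1380, 1316, 1186 and 1117 with NCA, 1435, 1073, 1064 and 1135 with ASO1, and 1583, 1426, 1303 and 1330 with ASO2. Without the replicate-1 libraries H4C3 was the 1 member that fell under ASO1, by 0.142 (adjusted p = 0.0253), and under ASO2 it rose by 0.168 (adjusted p = 0.00715).

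Among the H3 genes, H3C6 rose under both ASOs and H3C1 under ASO2. H3C6 was at 204.1, 190, 176.8 and 149.7 with NCA, at 230, 239.2, 211.4 and 195.5 with ASO1, and at 220.2, 209, 241.6 and 211.4 with ASO2. The log2 fold change of H3C6 was 0.285 under ASO1 (limma adjusted p = 0.0274), with overlap, and 0.297 under ASO2 (adjusted p = 0.0194), without. H3C1 rose under ASO2 by 0.306 (adjusted p = 0.0128), from 468.5 to 608.8 in NCA to 634.2 to 706.2, without overlap. The call of H3C6 was lost under ASO1 without ASO1 replicate 1 or 2 or NCA replicate 3 or 4 (0.2 to 0.279) and under ASO2 without ASO2 replicate 3 or NCA replicate 4 (0.253 and 0.212), and that of H3C1 without NCA replicate 4 (0.237). Both were called without the replicate-1 libraries, H3C6 at 0.323 and 0.36 under ASO1 and ASO2 and H3C1 at 0.353 under ASO2. H3C2, H3C11 and H3C10 did not pass under either ASO, with log2 fold changes from -0.063 (H3C11, ASO1) to 0.205 (H3C10, ASO1). H3C2, for example, was at 3257, 2458, 2247 and 2226 with NCA and at 3061, 2880, 2445 and 2531 with ASO2. Without the replicate-1 libraries H3C10 was called higher under ASO1 (0.205, limma adjusted p = 0.00214) and ASO2 (0.17, adjusted p = 0.00961). H3C2 was then called under ASO2 alone (0.178, adjusted p = 0.00185), and H3C11 under neither ASO.

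The H2A and H2B genes, which make up 28 of the 51 tested members, gave 4 calls in all. H2AC25 was at 1971, 1484, 1449 and 1378 with NCA, at 2119, 1933, 1946 and 1716 with ASO1, and at 2382, 1926, 1624 and 1692 with ASO2. It rose under ASO1 by 0.307 (SE 0.106, limma adjusted p = 0.0351), and under ASO2 its 0.277 just missed the threshold (adjusted p = 0.0504). H2AC6 rose under ASO1 by 0.263 (SE 0.091, adjusted p = 0.0353), from 1130, 975.7, 901.7 and 847.9 to 1386, 1189, 1106 and 960.8. Both genes overlap NCA. In H2AC25 it is NCA replicate 1 that overlaps, whereas in H2AC6 NCA replicate 2 (975.7) also lies above ASO1 replicate 4. Both lost the call without ASO1 replicate 1 (0.26 and 0.174), ASO1 replicate 2 or any of NCA replicates 2, 3 and 4, and H2AC25 also without ASO1 replicate 3. Without all 3 replicate-1 libraries both were called under ASO1, at 0.374 (H2AC25, adjusted p = 1.13e-07) and 0.253 (H2AC6, adjusted p = 0.00042).

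H2BC5 and H2AC15 rose under ASO2, by 0.302 (H2BC5, limma adjusted p = 0.0219) and 0.291 (H2AC15, adjusted p = 0.0446). H2BC5 was at 1406, 1151, 1024 and 1019 with NCA and at 1529, 1387, 1302 and 1411 with ASO2. H2BC5 lost its call without ASO2 replicate 1 or NCA replicate 3 or 4 (0.248 to 0.261). H2AC15 lost it with edgeR (0.285, adjusted p = 0.0511), when scaled to the same total (0.258), and without ASO1 replicate 2 or 3, ASO2 replicate 1 or 2, or NCA replicate 2, 3 or 4 (0.209 to 0.291). Both rose without the replicate-1 libraries, under ASO1 (0.235 and 0.354) and ASO2 (0.362 and 0.371). H2AC14, H2AC8 and H2AC20 did not pass, with log2 fold changes from -0.016 to 0.084 over both ASOs. H2BC4, H2BC18 and H2BC21 did not pass either, at -0.002, -0.058 and 0.172 under ASO1 and 0.081, 0.007 and 0.137 under ASO2. H2AC14, for example, was at 5403, 4259, 4220 and 4172 with NCA and at 5626, 4608, 4009 and 4366 with ASO2, where replicate 1 is the highest in both groups. Leaving out the replicate-1 libraries changed H2AC14 little (0.035, adjusted p = 0.515) but brought H2BC21 past the threshold under both ASOs (0.204, adjusted p = 0.000874, and 0.215, adjusted p = 0.000409). H2AC20 then passed under ASO2 (0.153, adjusted p = 0.00462), while H2AC8, H2BC4 and H2BC18 passed under neither ASO.

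ASO1 and ASO2 were also compared with each other in IMR32. By limma, 4 members were lower with ASO1 and 0 higher. Of all genes, 21.9% were called in either direction and 12.8% were called lower. The 4 were H4C13 (-0.328, adjusted p = 0.00514), H1-4 (-0.29, adjusted p = 0.0107), H4C3 (-0.268, adjusted p = 0.0285) and H1-3 (-0.259, adjusted p = 0.0387). H4C3 lost its call without ASO1 replicate 2, 3 or 4 or ASO2 replicate 1 or 2 (-0.211 to -0.261). H1-3 lost it without ASO1 replicate 2, 3 or 4 or ASO2 replicate 2 or 4 (-0.179 to -0.25), and when scaled to the same total (-0.205). Without the replicate-1 libraries 19 members were lower with ASO1, among them H1-2 (-0.253) and H1-5 (-0.168). There 28.8% of all 17393 genes were called, 2921 of them lower. Leaving out ASO1 replicate 1 alone gave 15, all lower, where 25.6% of all 17325 genes were called, 2691 of them lower. Only 2 were called without ASO1 replicate 2, 3 or 4 or ASO2 replicate 2 (15.8% to 18.2% of all genes called). Of all genes called, 41.8% were higher with ASO1, and 59.8% when libraries were scaled to the same total, while the members stayed lower (3 calls).

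In NGP, ASO10 raised 5 of 8 tested H2B genes, 2 of 4 H2A genes, 1 of 3 H4 genes, 0 of 2 H3 genes and 0 of 2 H1 genes, and a difference between families was not tested. Of 19 tested members 8 thus rose and 0 fell. Of all 14440 tested genes, limma called 54.4% in either direction and 26.8% upward. The median log2 fold change of the members was 0.615, against -0.026 over all genes, and 11 members had ASO10 libraries entirely above NCA, where 28.6% of all genes did. Since the mean over all groups decides what is tested, H2BC4 (9.11, 9.75 and 8.20 with NCA, 14.3, 23.8 and 12.8 with ASO10) passed that filter although its NCA values are below it. H1-4 also passed it, with 11.8, 4.43 and 6.15 in the NCA libraries.

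H2BC21 had the largest rise, from 245.8, 360.7 and 263.6 with NCA to 752, 834 and 758.4 with ASO10, and was at 401, 344.6 and 372.7 with ASO2. Its log2 fold change under ASO10 was 1.446 (SE 0.108, limma adjusted p = 3.42e-11). H2AC6 was at 96.5, 109 and 99.5 with NCA, at 84.5, 86.9 and 114 with ASO2, and at 243.5, 199.7 and 243.6 with ASO10. In both genes the ASO10 libraries stand clear of all others. H2AC6 rose by 1.159 under ASO10 (SE 0.141, adjusted p = 1.57e-07). H2BC5 rose by 1.014 (SE 0.125, adjusted p = 1.86e-07), from 123.8, 112.5 and 114.9 to 229.3, 246.3 and 236.7. H2BC15 was lower in reads and wider in spread, at 35.5, 24.8 and 13.3 with NCA and 55.0, 48.5 and 62.1 with ASO10, a rise of 1.232 (SE 0.295, adjusted p = 0.00104).

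Smaller rises under ASO10 in NGP were those of H2BC11 (0.946, limma adjusted p = 0.00508), H4C8 (0.845, adjusted p = 0.0042), H2BC12 (0.634, adjusted p = 0.000654) and H2AC25 (0.615, adjusted p = 0.000749). The H1 and H3 genes did not pass: H1-2 was at 138.4, 127.6 and 117.9 with NCA and at 154.9, 143.6 and 157.8 with ASO10, without overlap, at 0.249 (adjusted p = 0.102). ASO2 in NGP raised 2 members and lowered 0, where 58.7% of all genes were called, 30.6% upward. They were H2BC21 (0.379, adjusted p = 0.0041), whose ASO2 libraries overlap NCA, and H2BC12 (0.369, adjusted p = 0.0319), which went from 76.5, 106 and 95.4 to 124.4, 111.6 and 121.3. H2BC12 lost its call without NGP NCA replicate 1 (0.238), ASO2 replicate 1 (0.337) or ASO2 replicate 3 (0.355), and when libraries were scaled to the same total (0.299). The median over members under ASO2 was -0.089, against 0.009 over all genes.

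Set against each other in NGP, ASO2 gave lower values than ASO10 in 7 members and higher values in 0. Of all genes, 58.6% were called in either direction and 28.0% were called lower. The differences ran from -0.643 (H2AC25) to -1.394 (H2BC15), with H2AC6 at -1.268 and H2BC21 at -1.067 (limma adjusted p = 5.56e-09 for H2BC21).

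In SK-N-BE(2)c 10 members could be tested, 7 of them H2A or H2B genes. Under ASO10 limma called 3 members higher and 0 lower, where 58.9% of all 13556 tested genes were called, 27.8% upward. The members' share of calls, 30.0%, is thus below that of all genes and near the upward share of all genes. The 3 are 1 of 3 H2A and 2 of 4 H2B genes, and the other 4 of these families had negative estimates. H2BC5 went from 68.0, 67.6 and 92.5 with NCA to 108.8, 127.9 and 131.6 with ASO10, a rise of 0.695 (SE 0.170, adjusted p = 0.000909). H2BC21 went from 130.8, 138.1 and 134 to 173.9, 170.8 and 180.7, a rise of 0.38 (SE 0.12, adjusted p = 0.00807). Both are without overlap. H2AC25 rose by 0.45 (adjusted p = 0.0186), from 101.5, 111.9 and 111.8 to 155.3, 162.6 and 129, and lost its call without ASO10 replicate 1 (0.417), ASO10 replicate 2 (0.383) or NCA replicate 1 (0.403). H2AC6, which rose in NGP, was at 66.0, 61.4 and 73.1 with ASO10 against 91.0, 72.6 and 70.4 with NCA (-0.214, adjusted p = 0.368). In a joint limma fit of both lines, the ASO10 response was larger in NGP by 1.373 for H2AC6 (adjusted p = 0.000279) and by 1.065 for H2BC21 (adjusted p = 1.85e-05), where 19.2% of all genes were called.

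ASO2 in SK-N-BE(2)c lowered 1 member and raised 0, where 67.0% of all genes were called and 33.4% of all genes were called lower. That member, H2AC6, was at 66.3, 45.3 and 38.4 with ASO2, below all NCA libraries, a fall of 0.659 (the log2 fold change was -0.659, SE 0.199, limma adjusted p = 0.00483). The median over the 10 members was -0.165, against -0.016 over all genes. Scaling these libraries to the same total moved the median of all genes to -0.153, with 38.4% rather than 50.2% of the called genes higher, and 3 members were then called, all lower. In the joint fit the ASO2 response was larger in NGP by 0.587 for H2BC12 (adjusted p = 0.0291), where 19.9% of all genes were called. Against ASO10, ASO2 was lower in 3 members and higher in 0, where 65.4% of all genes were called, 30.8% lower. The 3 were H2BC5 (-0.977, adjusted p = 1.19e-05), H2AC25 (-0.562; not called without ASO2 replicate 3, at -0.35) and H2BC21 (-0.415). Of all genes called there, 52.9% were higher with ASO2, and 42.2% when scaled to the same total.

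**Figure D4:**
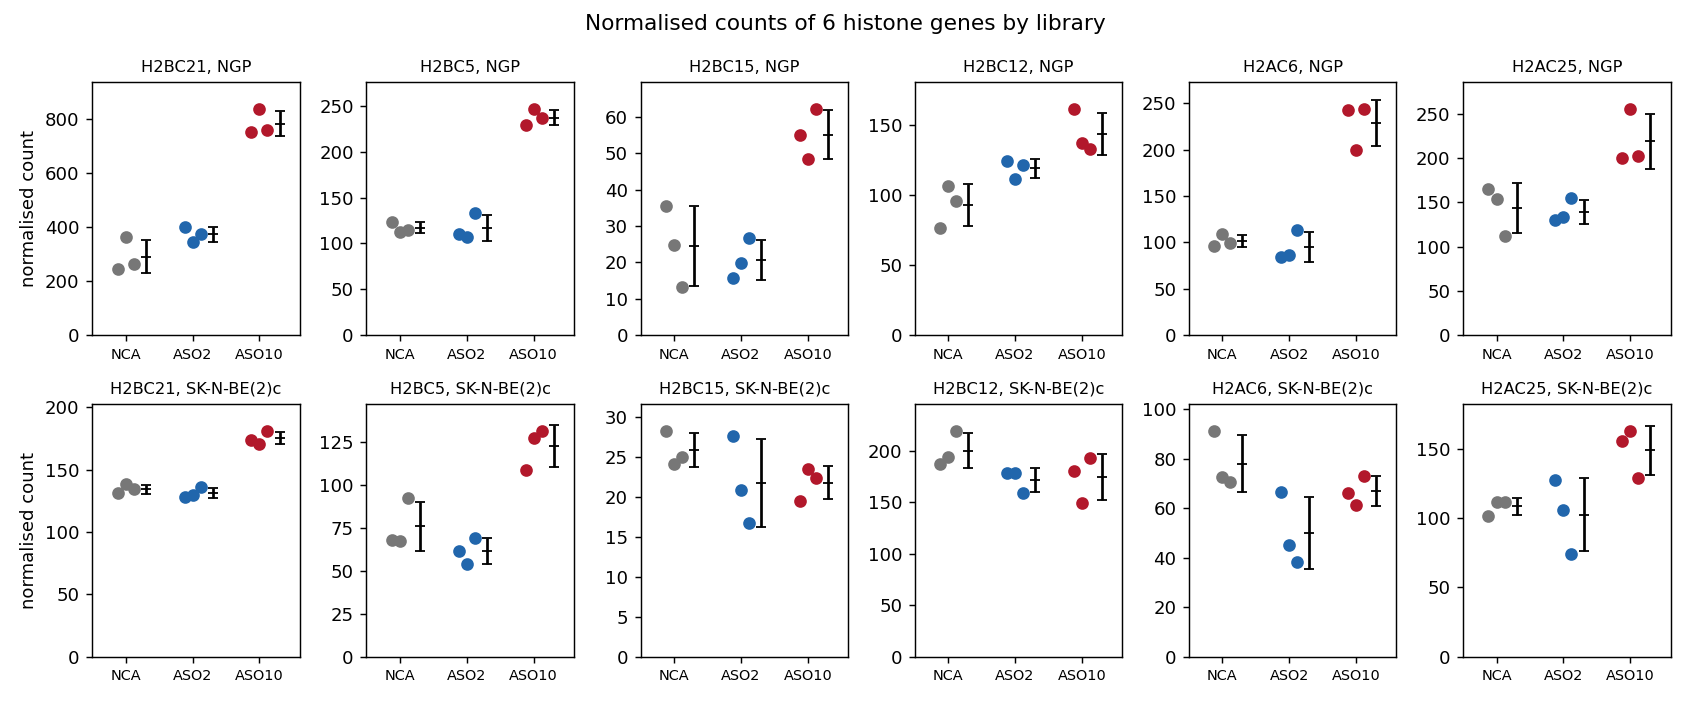
Normalised counts (vertical axis, from 0) of 6 member genes in each library of NGP and SK-N-BE(2)c, by group (horizontal axis), with a point per library and the group mean and SD. H2BC21 and H2AC6 in NGP have ASO10 libraries far above the others, at 752 to 834 and 199.7 to 243.6, while H2AC6 in SK-N-BE(2)c is at 61.4 to 73.1 with ASO10.

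Members were also split by how their transcripts end in the annotation. A poly(A) signal (AATAAA or ATTAAA) in the last 40 bases of an annotated transcript, after any stem-loop, was found for 20 of the 69 members. This split was made after the values were seen. H3C2, H3C3 and H2AC19 had no annotated coding transcript to search and count as without a signal. Of the 69 members, 38 had neither a stem-loop match nor a signal, and some have short annotated transcripts (381 bases for H2BC12). A missing signal can therefore reflect a short annotation. In NGP under ASO10, 7 of 9 tested members with a signal rose, with a median log2 fold change of 0.946 and values from 0.615 to 1.446. One of the 9, H2BC4, passed the filter through the ASO groups alone. Of 10 without a signal, 1 rose (H2BC12), with a median of 0.095. Of all genes, 26.8% were called upward in that contrast. H2BC12 and H1-2 (0.249, not called) have no signal by this rule but are known to give polyadenylated mRNA. Under ASO2 in NGP both sets lay near 0, at -0.028 with and -0.091 without a signal. In SK-N-BE(2)c under ASO10 the medians were 0.251 with a signal (3 of 7 rose) and 0.2 without (0 of 3). There 27.8% of all genes were called upward.

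In IMR32 the sets were closer together. Under ASO1 the medians were 0.115 with a signal (3 of 16 rose) and 0.059 without (1 of 35). Under ASO2 they were 0.187 (3 of 16) and 0.14 (7 of 35). Of all genes, 13.6% were called upward under ASO1 and 17.6% under ASO2. In this fit the ASO2 counts of both sets are near the share of all genes. Members with a signal gave 25.2% to 27.3% of the summed member values of an IMR32 library, against 56.1% to 64.0% in SK-N-BE(2)c and 59.5% to 74.7% in NGP. These sums covered 69 members in IMR32 and 34 in each of the other lines, so the parts are of different gene sets. What the different sets add to the larger part in the latter lines was not measured. That larger part stands beside the low share of RNAs without a poly(A) tail given above, which was also taken over fewer RNAs than in IMR32. Whether ASO10 altered the level of these mRNAs or the part of them that is polyadenylated was not tested.

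**Figure D5:**
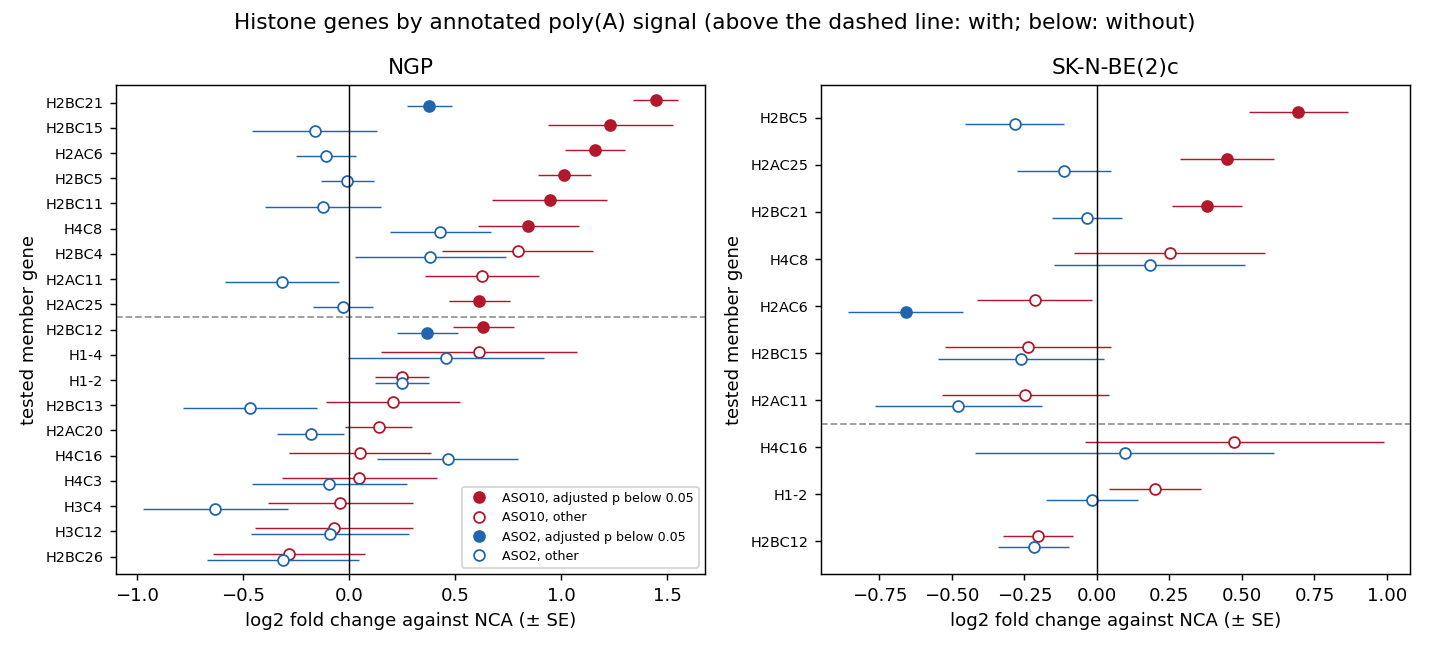
Log2 fold change against NCA with its standard error (horizontal axis) of each tested member in NGP and SK-N-BE(2)c (vertical axis), with members that have an annotated poly(A) signal above the dashed line and the others below it; filled points have a limma adjusted p below 0.05. In NGP the ASO10 points above the line run from 0.615 to 1.446, and below it from -0.283 to 0.634.

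Of the members, 13 pairs start within 1000 bases of each other on opposite strands, and 11 of these pairs are an H2A with an H2B gene that share the DNA between them. H2BC21 and H2AC20 start 236 bases apart, and the start of H2AC20 lies within the sequence printed above. In NGP under ASO10 H2BC21 rose by 1.446, while H2AC20 was at 110.2, 136.5 and 88.2 with NCA and at 127.4, 128.4 and 108.5 with ASO10 (0.139, limma adjusted p = 0.477). H2AC25 and H2BC26, 230 bases apart, stood at 0.615 (called) and -0.283 (not called). H2AC6 and H2BC4, 246 bases apart, were at 1.159 (called) and 0.795 (not called, adjusted p = 0.0635, and tested through its ASO values alone), and H2BC11 and H2AC11, 248 bases apart, at 0.946 (called) and 0.629 (not called, adjusted p = 0.0507). H2AC20 and H2BC26 thus had values far below those of their partners, a difference that was not tested.

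Genes that make, process and degrade histone mRNA changed in both directions in most contrasts against NCA. Of 26 tested, 3 rose and 4 fell under ASO1 in IMR32, and 5 rose and 0 fell under ASO2. When the replicate-1 libraries were left out, 5 rose and 6 fell under ASO1, and 7 rose and 3 fell under ASO2. In NGP 8 rose and 10 fell under ASO2, and 9 and 9 under ASO10. In SK-N-BE(2)c 7 rose and 13 fell under ASO2, and 7 and 12 under ASO10. The parts called were 26.9% and 19.2% in IMR32, 69.2% and 69.2% in NGP, and 76.9% and 73.1% in SK-N-BE(2)c. Over all genes they were 28.0% and 32.4%, 58.7% and 54.4%, and 67.0% and 58.9%, in the same order. Without the replicate-1 libraries, 32.9% and 38.1% of all genes were called in IMR32. These shares of all genes apply to the lists below as well. ZNF473, a zinc finger protein of the U7 complex that cuts histone pre-mRNA, rose in all 6 contrasts, from 314.9 ± 12.5 (SD, n = 4) with NCA to 484.0 ± 11.2 with ASO1 and 467.6 ± 19.1 with ASO2 in IMR32 (0.619 and 0.569). In the order ASO2 then ASO10 its log2 fold changes were 1.186 and 1.08 in SK-N-BE(2)c, against 0.571 and 0.751 in NGP. SRRT, which links the cap-binding complex to processing, rose in all of them except ASO10 in NGP (0.035). CASP8AP2, a partner of NPAT at histone loci, fell in all except ASO2 in IMR32 (-0.067), most under ASO10 in NGP (-0.58), and its call under ASO1 was lost without ASO1 replicate 4 or NCA replicate 4 (-0.151 and -0.16). ERI1, an exonuclease that trims the stem-loop end, rose under ASO2 by 1.023 in SK-N-BE(2)c and 0.768 in NGP. MBLAC1, a nuclease for histone pre-mRNA, rose under ASO10 in NGP (0.947), and TUT4, a uridylyl transferase, fell under ASO10 by 0.405 in SK-N-BE(2)c and 0.315 in NGP.

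The S phase genes gave other counts than the members. Under ASO1 in IMR32, 0 rose and 7 fell of 30 tested, with a median of -0.084, while under ASO2 3 rose and 3 fell, with a median of 0.06. Without the replicate-1 libraries these counts were 0 and 11 under ASO1, and 7 and 5 under ASO2. In NGP 7 rose and 11 fell of 29 under ASO2, and 3 rose and 12 fell under ASO10. In the latter contrast 26.8% of all genes were called upward and 27.6% lower. In SK-N-BE(2)c 11 rose and 11 fell under ASO2, and 13 rose and 8 fell under ASO10. The parts called were 23.3% and 20.0% in IMR32, 62.1% and 51.7% in NGP, and 75.9% and 72.4% in SK-N-BE(2)c. POLA1, the catalytic subunit of the polymerase that primes replication, fell in all 6 contrasts, from -0.289 (ASO2, IMR32) to -1.387 (ASO2, SK-N-BE(2)c). RRM2, a subunit of ribonucleotide reductase, fell under ASO10 by 0.832 in SK-N-BE(2)c and by 0.718 in NGP. The replication helicase gene MCM3 fell under ASO1 in IMR32 (-0.259) and rose under both ASOs in SK-N-BE(2)c (0.365 and 0.276), where MCM7 rose as well (0.419 and 0.482). Of the contrasts against NCA, MCM4 passed in ASO10 in SK-N-BE(2)c alone (0.176).

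Histone chaperones carry new histones to DNA. Of 21 tested, 3 rose and 1 fell under ASO1 and 7 rose and 2 fell under ASO2 in IMR32, or 5 and 3, and 9 and 2, without the replicate-1 libraries. In NGP 9 rose and 5 fell under ASO2 and 7 and 5 under ASO10, and in SK-N-BE(2)c 12 and 4, and 10 and 6. CHAF1A, the large subunit of the assembly factor CAF-1, fell under ASO10 in NGP from 1676 ± 17.3 to 581.2 ± 17.4 (SD, n = 3), and in SK-N-BE(2)c from 1931 ± 69.9 to 861.7 ± 71.9. Those are log2 fold changes of -1.526 and -1.166 for CHAF1A, against -0.216 and -0.324 under ASO2. HIRA, the chaperone of the replication-independent H3.3, went the other way between the ASOs, at -1.462 under ASO2 and 0.679 under ASO10 in SK-N-BE(2)c and at -1.432 and 0.31 in NGP, and passed each time. NASP, which holds free H3 and H4, rose in all 4 contrasts of those lines (0.31 to 0.864), and NAP1L1, a chaperone of H2A and H2B, rose under ASO2 in all 3 lines (0.227 to 0.514) and fell under ASO10 (-0.279 in NGP, -0.37 in SK-N-BE(2)c). ASF1A rose under ASO2 in all 3 lines (0.234 to 0.299), but lost its call in IMR32 without ASO2 replicate 3 or NCA replicate 3 (0.256 and 0.21) and in SK-N-BE(2)c without NCA replicate 1 (0.172) or when scaled to the same total (0.097). SSRP1 rose under ASO2 in NGP (0.148; not called at 0.078 when scaled to the same total) and SK-N-BE(2)c (0.312). IPO4, an importer of H3 and H4, rose under ASO1 in IMR32 by 0.916, from 10.5 ± 4.4 to 20.1 ± 5.39 (SD, n = 4), and lost its call without ASO1 replicate 2 or without the 3 replicate-1 libraries (0.758 and 0.76).

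The replication-independent variants are made also outside S phase, mostly from ordinary polyadenylated mRNA, while H2AX gives a stem-loop mRNA as well. They gave 1 rise and 1 fall of 10 tested under ASO1 in IMR32 and 2 rises under ASO2, and without the replicate-1 libraries 2 rises and 3 falls, and 2 and 2. Of the 2 rises under ASO2, that of H3-3B (0.196) lost its call when scaled to the same total and without any 1 of 7 libraries (ASO1 replicates 3 and 4, ASO2 replicates 1 and 2 and NCA replicates 2, 3 and 4), at 0.123 to 0.2. In NGP 4 rose and 2 fell of 11 under ASO2 and 5 and 2 under ASO10. In SK-N-BE(2)c 5 rose and 4 fell under ASO2, and 0 rose and 1 fell under ASO10. The parts called were 20.0% and 20.0% in IMR32, 54.5% and 63.6% in NGP, and 81.8% and 9.09% in SK-N-BE(2)c. H3-3A, a gene for H3.3, rose in NGP under ASO2 (0.803) and ASO10 (0.496) and in SK-N-BE(2)c under ASO2 (0.651). H3-3B, the other H3.3 gene, rose in the same 3 contrasts by 0.388, 0.281 and 0.53. H2AX rose by 0.247 under both ASOs in IMR32. H2AZ2 rose under ASO2 and fell under ASO10 in NGP (0.286 and -0.231) and SK-N-BE(2)c (0.42 and -0.291). MACROH2A1 fell under both ASOs in NGP (-0.175 and -0.183) and under ASO2 in SK-N-BE(2)c (-0.276).

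Of 8 RNAs without a poly(A) tail that were tested in IMR32, 0 changed under ASO1 by limma (2 had an unadjusted p under 0.05) and 1 rose under ASO2. That was RN7SL1, the RNA of the signal recognition particle, at 0.383. The counts without the replicate-1 libraries were 1 rise under ASO1 and 2 under ASO2. RMRP stood at -0.012 and -0.017, and SNORA73B at 0.103 and 0.197, none of which passed. In the other lines only 4 (NGP) and 3 (SK-N-BE(2)c) could be tested, and SCARNA10 rose in each of their contrasts against NCA (1.174 to 1.777) at levels of 6.08 to 22.6. Under ASO10 its call was lost without ASO10 replicate 1 or 3 in NGP (0.939 and 1.03) and without NCA replicate 2 in SK-N-BE(2)c (0.925).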

How the data were processed

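RNA sequencing of 30 libraries in 9 groups gave 1 deposited table per cell line. The submitters' processing notes name FastQC 0.11.8, cutadapt 1.18, STAR 2.6.0, HTSeq 0.6.1 and DESeq2 1.42.0 and the builds hg19 and GRCh37. The deposited values, treated as a normalised signal, are gene counts that the authors divided by a size factor per library, per the labels and as the steps between low values show: 100% of values came out as whole reads (tolerance 0.01). In IMR32, 174 entries without a gene ID (0.172% of values) were left out, and 0 sample columns were unused. Members and comparison lists were chosen with earlier results of these data known, so no list is independent evidence of its direction, and no p was computed over a list.

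Tests used limma 3.58.1 (R 4.3.3) on log2(value + 1), with 1 mean per group, all 3 groups of a table and a mean-variance trend, over genes with a mean of at least 10. Called means a Benjamini-Hochberg adjusted p under 0.05 over all tested genes, and fold changes are on this scale, which understates low genes. The method was tested on simulated data. edgeR 4.0.16 on the recovered reads, another pseudocount, filter and scaling, a replicate block and leaving out libraries were alternatives. NGP and SK-N-BE(2)c were set against each other in 1 joint limma fit. Counting error alone sets the floor of 3 reads. Named are the 3 members of each family with the highest mean in IMR32, the 2 largest called rises and falls per contrast against NCA and, of each list, the 3 highest genes in IMR32 and the largest called change. H1-3, H2AC11, H2AC15, H2BC11, H2BC26, H3C1, H3C6 and H4C8 were named after their values were seen. Stem-loops come from GENCODE 29 (GRCh38) and promoters from RefSeq (GRCh38.p14), and no coordinate of the files was used.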

Additional observations from a re-analysis of the deposited data

Results flagged for a closer look

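Of 87 sets of 4 IMR32 libraries (named members by group), 11 had a library far from the other 3, meaning that its gap to the nearest library, as a part of the whole range, exceeded Dixon's critical value for 4 samples. Chance flags about 1 in 20 single sets, but these sets share libraries and the members move together, so the flags are not independent. All 11 were replicate 1, and in each it was the highest library. With ASO1 they were H1-2 (0.844 of the range, 5451 against 4077 to 4291), H1-4 (0.918, 5917 against 4639 to 4745), H1-5 (0.988, 8241 against 6326 to 6349), H3C2 (0.863), H3C11 (0.847) and H4C5 (0.872, 1646 against 1250 to 1300). With NCA they were H2AC14 (0.929, 5403 against 4172 to 4259), H2AC8 (0.876), H2BC4 (0.83) and H3C10 (0.918, 925 against 689.9 to 709.3). With ASO2 it was H2BC26 (0.831, 1071 against 863.2 to 898.3). The part of these libraries in the results was measured by leaving them out, as given above.

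The response to an ASO differed between NGP and SK-N-BE(2)c in 5 cases, by a limma test of the difference of log2 fold changes against NCA in a joint fit. Under ASO10 it was larger in NGP by 1.468 for H2BC15 (adjusted p = 0.014), by 1.373 for H2AC6 (adjusted p = 0.000279), by 1.065 for H2BC21 (adjusted p = 1.85e-05) and by 0.837 for H2BC12 (adjusted p = 0.00254), where 19.2% of all 12637 genes were called. Under ASO2 it was larger in NGP by 0.587 for H2BC12 (adjusted p = 0.0291), where 19.9% were called. The fit assumes that the 2 tables were scaled alike within each line.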

How the results depend on the processing

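No estimate changed sign among the results that passed the threshold. The replicate block gave 13 calls instead of 4 for ASO1 and 36 instead of 10 for ASO2 against NCA in IMR32, and 15 instead of 4 between them, where it called 38.2%, 42.9% and 32.8% of all genes; elsewhere it kept every count within 1.5 times. The numbers were not taken as pairs: over genes with a mean of at least 10, the deviations of same-numbered libraries of ASO1 and NCA correlated at 0.318, 0.055, 0.116 and 0.055. Over genes with a mean of at least 100 these were 0.621, 0.149, 0.31 and 0.138, but 0.037 for replicate 2 of ASO2 and NCA, and below 0 for replicates 2 and 4 of ASO1 and ASO2. Replicates 1 and 3 correlated best with their own number in every pair of groups, at 0.559 to 0.621 and 0.307 to 0.392 over the latter genes. Replicates 2 and 4 did not do so in every pair. Leaving out the 3 replicate-1 libraries gave 16, 40 and 19 calls in the same order. Leaving out single libraries gave 1 to 13, 5 to 27 and 2 to 15 in IMR32, 1 to 3 (ASO2), 8 to 9 (ASO10) and 6 to 8 (between them) in NGP, and 1, 2 to 3 and 2 to 4 in SK-N-BE(2)c. In those settings the low count for ASO2 in NGP came without ASO2 replicate 1 or 3 or NCA replicate 1. Without a filter on low values, 1 member was called for ASO2 in NGP, 2 for ASO2 in SK-N-BE(2)c and 6 between ASO2 and ASO10. A mean of at least 50 left 5 calls for ASO10 and 4 between the ASOs in NGP, since fewer members were tested. Scaling to the same total gave 3 calls for ASO2 in SK-N-BE(2)c and 1 in NGP. Taking the 10 highest genes out of the denominator raised the share to 0.678% (ASO2, IMR32), 0.0198% (ASO10, NGP), 0.00812% (ASO10) and 0.00726% (NCA) in SK-N-BE(2)c. With edgeR, 396 of 402 values of named genes kept direction and call, 4 became called and 2 lost their call. Reads limit SK-N-BE(2)c and NGP most: 24 and 15 of their 34 members were below the mean tested.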
